A study of Mus musculus with 12 samples.

Results

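The 10 genes described here encode the peroxisome proliferator-activated receptors (PPARs), their partners and their coregulators. They were read out in mouse liver, in 6 control (WT) libraries and 6 double knockout (DKO) libraries that had been given Cre against floxed Acly and Acss2. The genes were chosen by name: Ppara, Ppard, Pparg, Ppargc1a, Ppargc1b, Rxra, Rxrb, Nr1i2, Nr1i3 and Ncor1. All 10 had a row in the table of 12284 named genes. Every mouse carried floxed Acly and Acss2. The DKO group received AAV8-TBG-Cre, a virus with Cre behind the hepatocyte promoter TBG, and the WT group AAV8-TBG-GFP, so the WT livers are floxed, virus-injected controls, and the other cell types of the DKO livers were not targeted. Mice were injected when 6 to 8 weeks old, went on a Western diet 1 week afterwards, and had eaten it for 6 weeks when livers were taken. The labels name no sex, strain or mouse per library, so p-values measure the spread between libraries.

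PPARs are nuclear receptors that bind fatty acids and, paired with a retinoid X receptor (RXR), bind DNA near genes of lipid use. In liver PPARα drives fatty acid oxidation and ketone body synthesis during fasting, PPARγ promotes fat storage and is raised in fatty liver, and PPARδ is expressed in many tissues. CAR (Nr1i3) and PXR (Nr1i2) are RXR partners that control drug and steroid metabolism. The coactivators PGC-1α (Ppargc1a) and PGC-1β (Ppargc1b) raise mitochondrial genes, and PGC-1α also raises glucose-producing genes. NCoR1 (Ncor1) recruits a histone deacetylase to receptors that are not activated.

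Values are log2 CPM, read counts scaled for library size and normalized between libraries by the authors, on a log2 scale. A gene is said to have risen or fallen only where limma gave an adjusted p below 0.05 over all 12284 genes. The targeted genes were lower in the DKO libraries: Acly was at 17.6% and Acss2 at 22% of WT (limma adjusted p = 0.0165 and 0.00571, n = 6 against 6). Hepatocyte markers were highly expressed in every library, with a mean of 11.07 to 11.42 log2 CPM in WT and 10.99 to 11.31 in DKO. By mean correlation with the rest of its group (Pearson r across genes), WT 1 was lowest in WT (0.951, the others 0.959 to 0.965) and DKO 1 lowest in DKO (0.945, the others 0.951 to 0.959). Markers of other cells differed too. In DKO 18 of 19 macrophage markers were higher (median log2 fold change 0.65), 3 of which rose, where 0.619% of all genes rose. So were 13 of 14 stellate cell markers (0.37) and 15 of 15 endothelial markers (0.26), none of these called by limma. At an unadjusted p below 0.05 stood 8 stellate cell and 6 endothelial markers, and 16.4% of all genes. Of 7 cholangiocyte markers 6 were higher and 2 rose (0.28). Those that rose were Cd24a (log2 fold change 0.95) and, named after its value was seen, Spp1 (0.88). Krt19 (0.53), Krt18 (0.28), Krt8 (0.12), Sox9 (0.01) and Krt7 (-0.24), also named afterwards, were not called. With single libraries left out, these called counts ran from 1 (without WT 2, WT 3 or DKO 4) to 10 (without WT 1) for macrophage markers and from 0 (without WT 6 or DKO 1) to 2 for cholangiocyte markers. The effect of Cre itself and that of the deletion cannot be told apart, since no group had Cre without floxed genes. The number of reads per library is unknown, so no counting interval is given.

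None of the 10 members was called: limma called 0 of 10, where it called 214 of all genes (1.74%). At an unadjusted p below 0.05 there were 2 of 10, Nr1i3 and Nr1i2, where 16.4% of all genes stood there, and the exact permutation test over libraries gave the same 2. In DKO 8 members had a lower mean, with a median log2 fold change of -0.16 against 0.0041 over all genes, of which 49.2% were lower. In 0 of 10 did the WT and DKO values separate completely, as they did for 2.17% of all genes.

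**Figure D1:**
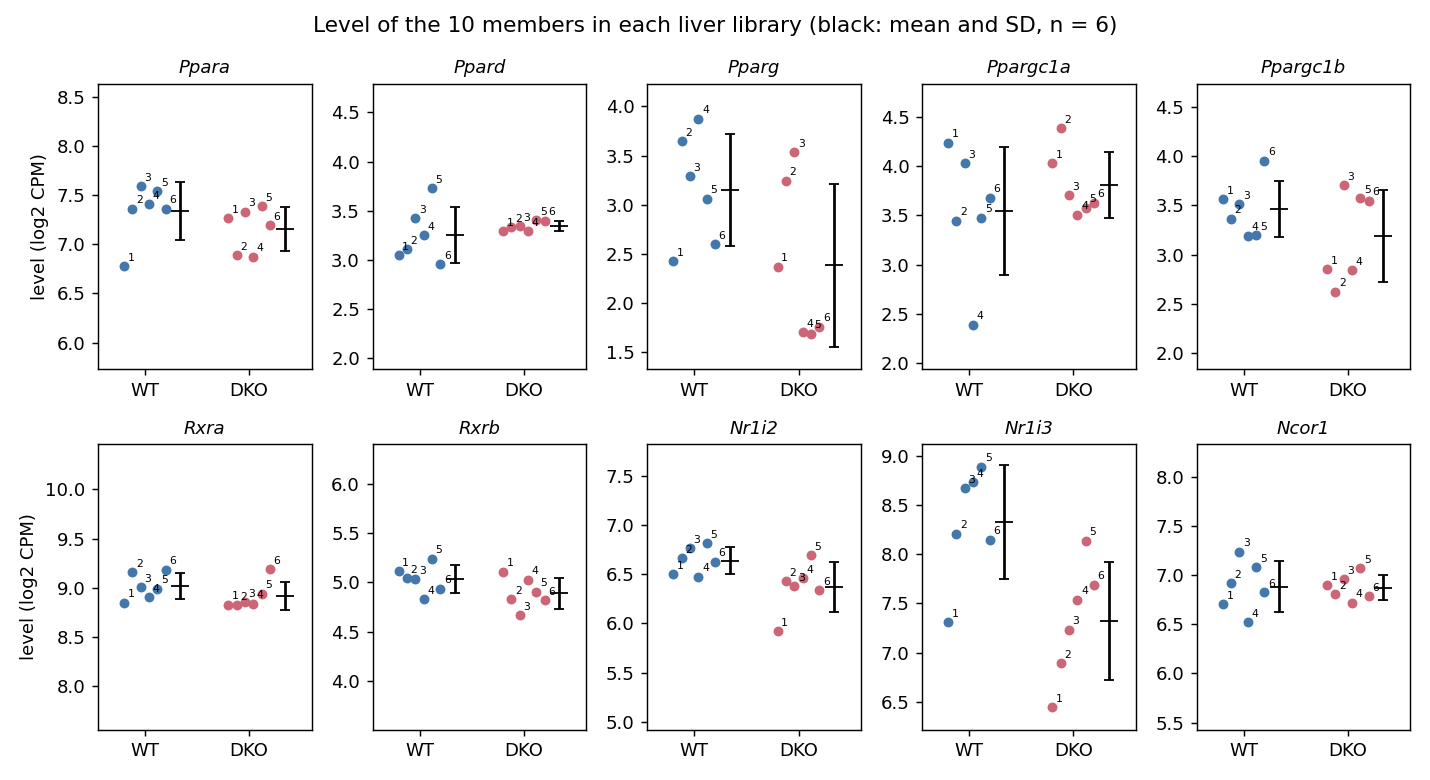
Level of each member in each library in log2 CPM; points carry the library number, and black marks are the mean and SD of 6 libraries. Every panel spans the same number of log2 units, so that Rxra and Rxrb lie in a narrow band while Nr1i3 and Pparg spread widely.

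**Figure D2:**
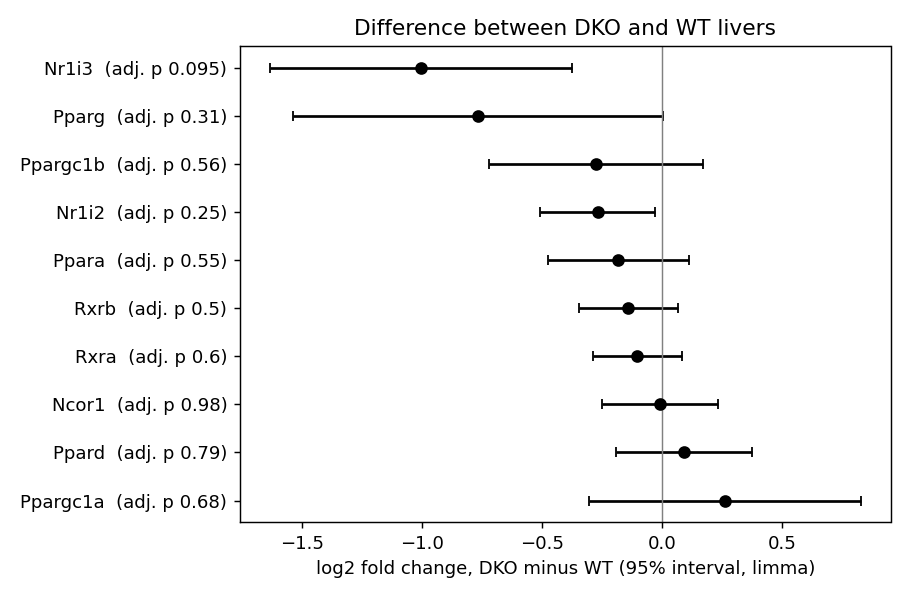
Log2 fold change, DKO minus WT, of each member with its 95% interval from limma. The intervals of Nr1i3 (-1.63 to -0.38) and Nr1i2 (-0.51 to -0.03) lie below 0 before adjustment, and no adjusted p is below 0.05.

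The largest difference among the members was that of Nr1i3, the gene of CAR, a receptor that induces cytochrome P450 genes. Its level in WT had a lowest value of 7.31, a median of 8.44 and a highest value of 8.89 log2 CPM, and in DKO these were 6.44, 7.39 and 8.14. All 6 DKO libraries lay below 5 of the 6 WT libraries, and the groups overlapped through WT 1 (7.31), which stood below DKO 4, DKO 5 and DKO 6. The DKO mean was 49.8% of WT (95% interval 32.2% to 77.1%; 8.33 ± 0.58 against 7.32 ± 0.60 log2 CPM, SD, n = 6 each), with a log2 fold change of -1.0 (SE 0.29). It did not pass the threshold (limma adjusted p = 0.0950; unadjusted limma p = 0.00411; exact permutation p = 0.0173, 2-sided). Without WT 1 the log2 fold change was -1.21 and the limma adjusted p 0.0276, and without WT 1 and DKO 1 together, a choice made after the values were seen, it was -1.03 and 0.0332. With any other single library left out, the limma adjusted p lay between 0.0683 and 0.197. Of 19 hepatocyte markers 15 were lower in DKO (median log2 fold change -0.19). Limma called 1, the receptor gene Asgr1 (adjusted p = 0.0452), where it called 1.74% of all genes. This call was lost without any single library except WT 1 or DKO 6 (limma adjusted p up to 0.105) and with quantile normalization (0.277). The part of the hepatocyte markers in the level of Nr1i3 was not tested. In whole liver, fewer cells of a type and less RNA per cell cannot be told apart.

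Nr1i2, the gene of PXR, which senses bile acids and foreign compounds, was lower by a smaller amount. Its WT values ran from 6.47 through a median of 6.64 to 6.82 log2 CPM, and its DKO values from 5.92 through 6.40 to 6.70. DKO 1 was the lowest library, and 5 of 6 DKO libraries lay below the lowest WT library. The DKO level was 83.0% of WT (95% interval 70.3% to 98.1%; log2 fold change -0.27, SE 0.11, limma adjusted p = 0.247; exact permutation p = 0.0281). The ratio of Nr1i3 to Nr1i2 within a library averaged 1.69 ± 0.52 log2 units among WT and 0.95 ± 0.41 among DKO libraries (SD, n = 6 each), a difference of -0.74 (95% interval -1.34 to -0.13; exact permutation p = 0.0260, and 0.0779 after adjustment over the 3 ratios compared). These ratios were chosen after the values were seen, and the difference in response between the receptors did not pass after adjustment.

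RefSeq promoter windows, from 250 bases before to 50 bases after the gene start (build GRCm38.p6), were matched for 9 members, all but Ppargc1b. They are shown for the pair of receptors with the lowest p and for Ppara, because these 3 windows differ in their CG dinucleotides, which are in capitals. The window of Nr1i3 is chr1:171213720-171214019 on the + strand, that of Nr1i2 is chr16:38294775-38295074 on the - strand, and that of Ppara is chr15:85735526-85735825 on the + strand.
Nr1i3: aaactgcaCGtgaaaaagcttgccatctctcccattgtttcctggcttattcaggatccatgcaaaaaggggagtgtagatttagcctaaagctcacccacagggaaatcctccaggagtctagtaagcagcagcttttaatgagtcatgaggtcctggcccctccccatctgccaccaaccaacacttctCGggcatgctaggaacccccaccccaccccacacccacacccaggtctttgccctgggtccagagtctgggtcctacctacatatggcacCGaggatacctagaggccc
Nr1i2: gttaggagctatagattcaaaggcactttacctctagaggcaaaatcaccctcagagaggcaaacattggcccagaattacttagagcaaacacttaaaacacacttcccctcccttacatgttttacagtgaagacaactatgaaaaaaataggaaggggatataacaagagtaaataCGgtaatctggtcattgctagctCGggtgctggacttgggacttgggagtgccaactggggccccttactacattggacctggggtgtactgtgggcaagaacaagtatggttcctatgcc
Ppara: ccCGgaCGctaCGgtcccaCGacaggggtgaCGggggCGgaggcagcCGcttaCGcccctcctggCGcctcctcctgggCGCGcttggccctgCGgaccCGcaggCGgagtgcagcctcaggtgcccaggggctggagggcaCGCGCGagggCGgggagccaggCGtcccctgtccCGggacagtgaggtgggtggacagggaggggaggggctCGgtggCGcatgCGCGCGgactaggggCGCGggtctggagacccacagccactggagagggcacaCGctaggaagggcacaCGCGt
The window of Nr1i3 held 3 CG dinucleotides and that of Nr1i2 held 2, against 30 in that of Ppara and a median of 7 over 32851 windows (quartiles 3 and 20). Among the other members, Ppard had 27, Ppargc1a 5, while genes with several windows differed between them: Rxra had 55 and 1, Rxrb 37 and 47, Pparg 44, 13 and 2, and Ncor1 2 and 36. Windows with few CG dinucleotides were thus not limited to Nr1i3 and Nr1i2. The element AGGTCA, 1 arm of the repeats that these receptors bind, was searched on both strands. It was found in 3 of the 14 windows of members (21.4%), 2 of Pparg and 1 of Rxra, against 16.3% of all windows. Neither AGGTCANAGGTCA, the repeat bound by PPAR with RXR, nor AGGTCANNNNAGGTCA, a repeat bound by CAR and PXR with RXR, was found in a window of a member; they occur in 0.0396% and 0.0152% of all windows, and both contain the shorter element.

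Targets of CAR and PXR moved in both directions. Of 42 listed genes 34 had a row; 4 rose (0.619% of all genes rose), 4 fell (1.12% of all genes fell), 20 were lower in DKO, and the median log2 fold change was -0.11. The genes that rose were glutathione S-transferases, which couple glutathione to reactive compounds: Gstm3 (log2 fold change 2.73), Gsta1 (2.36), Gstm2 (1.18) and, named after its value was seen, Gstm1 (1.03), with limma adjusted p of 3.34e-06, 0.0145, 0.00078 and 0.000851. These genes have close paralogs, between which the authors' counting could have split reads, and also answer to other factors. Gsta1 was low, with a mean of -0.55 log2 CPM in WT and 1.81 in DKO, so its size depends on how low values were treated. It stayed called in all 20 alternatives that kept it, with a log2 fold change of 1.43 or more. The genes that fell were Cyp2c37 and Cyp2c29, cytochromes P450 of fatty acid and drug oxidation, Ugt1a1, which conjugates bilirubin, and, named after its value was seen, Aldh1a1, a retinal dehydrogenase. Cyp2c37 ran from 8.08 through 8.49 to 8.70 log2 CPM in WT and from 6.85 through 7.65 to 7.90 in DKO, with no overlap of the groups. It fell to 50.7% of WT (limma adjusted p = 0.0144), Cyp2c29 to 54.4% (0.0357), Ugt1a1 to 65.1% (0.0282) and Aldh1a1 to 67.8% (0.0120). The call of Cyp2c29 was lost without any single library except WT 1, DKO 2 or DKO 6 (limma adjusted p up to 0.0817), and that of Ugt1a1 without WT 3, WT 4, WT 5, WT 6, DKO 1, DKO 3 or DKO 4 (up to 0.0717).

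Cyp2b10, the gene most often used as a readout of CAR, and Cyp3a11, that of PXR, are given here outside the rule for named genes. Cyp2b10 averaged 1.81 ± 1.79 log2 CPM over the WT libraries, which ran from -0.08 to 4.25, and -0.99 ± 1.14 over the DKO libraries, which ran from -2.61 to 0.73 (SD, n = 6 each). Its level was 14.3% of WT and did not pass the threshold (log2 fold change -2.80, SE 0.76, limma adjusted p = 0.0802), the groups overlapping. Cyp3a11 was at 10.7 ± 0.54 and 10.6 ± 0.50 log2 CPM, a log2 fold change of -0.12 (SE 0.26, limma adjusted p = 0.868).

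Ppara, the receptor of fatty acid oxidation, differed little. Its WT values had a lowest value of 6.77, a median of 7.38 and a highest of 7.59 log2 CPM, and its DKO values 6.87, 7.23 and 7.38. WT 1 stood below all other libraries of both groups. The DKO level was 88.1% of WT (95% interval 71.9% to 108%; log2 fold change -0.18, SE 0.14, limma adjusted p = 0.552; exact permutation p = 0.234). Without WT 1 the log2 fold change was -0.30 (limma adjusted p = 0.151).

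Targets of PPARα were lower while their receptor was not called. Of 52 listed genes 51 had a row, 47 were lower in DKO, 11 fell (1.12% of all genes fell) and 0 rose, with a median log2 fold change of -0.51; a few targets, such as Cpt1a, also stand in other lists. The hepatocyte markers had a median of -0.19, and their part in this difference was not tested. These targets were chosen with earlier results of these samples known, so their direction is not independent evidence. Vnn1, a pantetheinase, ran from 4.38 to 6.26 log2 CPM in WT and from 2.12 to 4.78 in DKO and fell to 21.0% of WT (limma adjusted p = 0.0200). Retsat, a retinol saturase, ran from 8.41 to 9.66 in WT and from 7.35 to 8.29 in DKO without overlap, and fell to 43.0% (0.00905). Acaa1b, a thiolase of peroxisomes, fell to 43.4% (0.00678), its highest DKO library, DKO 2 (10.4), reaching above the lowest WT library (10.3). Outside the rule, Slc27a2, a fatty acid transporter, fell to 69.8% of WT (limma adjusted p = 0.0468). Cpt1a, which admits fatty acids to mitochondria, was at 101% (limma adjusted p = 0.975). The number that fell varied with the libraries included: it was 19 without WT 1, 7 without WT 3, WT 5 or DKO 3, and 6 without DKO 4. It was 4 with quantile normalization. Vnn1 was not called when WT 3, WT 5 or DKO 4 was left out (limma adjusted p up to 0.0524).

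**Figure D3:**
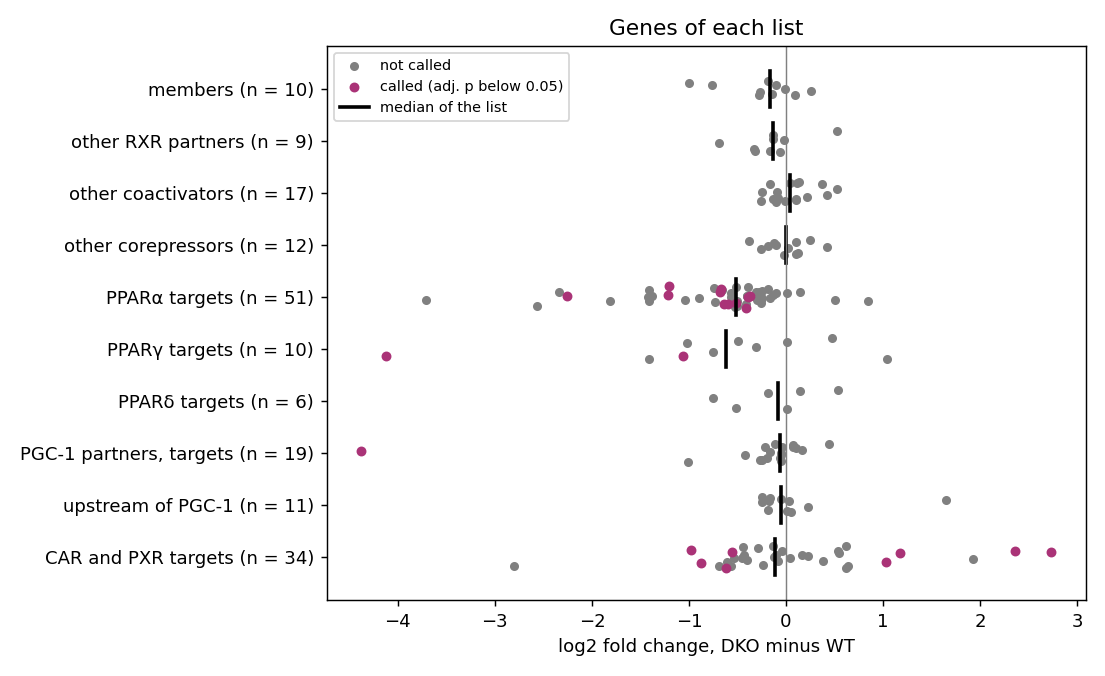
Log2 fold change, DKO minus WT, of every gene with a row in the list of members and in 9 lists of related genes; coloured points were called by limma, and bars mark each list's median. The PPARα and PPARγ targets have medians of -0.51 and -0.62, while the other lists have medians between -0.16 and 0.04.

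A window of 1 target shows the kind of element that PPARα recognises. Among 43 windows of 37 matched PPARα targets, the looser repeat AGGNCANAGGNCA, searched on both strands, was present in 1, that of Fabp1, the fatty acid binding protein of liver (chr6:71199629-71199928, + strand, GRCm38.p6), against 0.381% of all windows. The repeat, in capitals, runs from base -67 to base -55 before the gene start and reads on the opposite strand.
Fabp1: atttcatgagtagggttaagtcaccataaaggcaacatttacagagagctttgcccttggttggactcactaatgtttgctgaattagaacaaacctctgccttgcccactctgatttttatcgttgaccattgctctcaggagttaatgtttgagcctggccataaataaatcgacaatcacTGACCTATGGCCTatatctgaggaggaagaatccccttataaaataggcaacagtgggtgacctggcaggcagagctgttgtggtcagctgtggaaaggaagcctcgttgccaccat
Fabp1 itself was at 82.5% of WT and was not called (log2 fold change -0.28, SE 0.15, limma adjusted p = 0.396).

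Pparg, the receptor of fat storage, was the most variable of the 3 PPARs between libraries. Its WT values had a lowest value of 2.43, a median of 3.18 and a highest of 3.88 log2 CPM. In DKO the lowest was 1.69, the median 2.07 and the highest 3.54. DKO 1 (2.37) and DKO 4, DKO 5 and DKO 6 (1.69 to 1.76) lay below every WT library, while DKO 2 (3.24) and DKO 3 (3.54) lay within the WT range. The DKO mean was 58.8% of WT (95% interval 34.4% to 100.4%; log2 fold change -0.77, SE 0.36, limma adjusted p = 0.307; exact permutation p = 0.0909). Leaving out 1 library at a time moved the log2 fold change between -1.0 and -0.62, with limma adjusted p from 0.161 to 0.465. Macrophages also express Pparg, and the macrophage markers had a mean level of 3.47 to 4.06 log2 CPM in WT and 4.16 to 4.82 in DKO; their part in the level of Pparg was not tested.

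Of 15 listed PPARγ targets 10 had a row; 7 were lower in DKO, 2 fell (1.12% of all genes fell) and 0 rose, with a median log2 fold change of -0.62. The count was 1 with no mean trend. With a filter on the mean level it was also 1, because both filters removed Cfd before the fit. Fitm1, which helps to form lipid droplets, ran from 4.45 to 5.40 log2 CPM in WT and from 3.39 to 4.49 in DKO and fell to 48.0% of WT (limma adjusted p = 0.0144). Cfd, adipsin, a protease made by fat cells, fell to 5.73% of WT (0.0364), with DKO 1 and DKO 6 listed at the table's minimum, which makes the size depend on how low values were treated. Its call was lost without any single library except WT 1 or DKO 2 (limma adjusted p up to 0.0850). Of 7 adipocyte markers only Cfd and Fabp4, the fatty acid binding protein of fat cells and macrophages, had a row. Fabp4, also a listed PPARγ target and given outside the rule, went the other way. It was at 139% of WT and was not called (log2 fold change 0.48, limma adjusted p = 0.313). Outside the rule, Lpl, the lipase of triglyceride-rich particles, was 2.05 times its WT level (log2 fold change 1.04, limma adjusted p = 0.0787), and Cd36 differed by 0.01 on the log2 scale.

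Ppard, the PPAR found in many tissues, had a lowest value of 2.96, a median of 3.18 and a highest of 3.73 log2 CPM in WT and 3.29, 3.34 and 3.40 in DKO, so that all DKO libraries lay inside the WT range. The DKO level was 106% of WT (95% interval 87.6% to 129%; log2 fold change 0.09, limma adjusted p = 0.790). None of the 6 genes with a row among 7 used as PPARδ targets was called by limma (1.74% of all genes were). Of these 6, 2 had an unadjusted p below 0.05 (16.4% of all genes). Ucp2, a mitochondrial carrier, was closest (log2 fold change 0.54, limma adjusted p = 0.147). Pparg and Ppara did not separate in their response: their ratio within a library differed by -0.58 log2 units (95% interval -1.47 to 0.31; exact permutation p = 0.169, adjusted p = 0.195 over the 3 ratios).

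The PGC-1 coactivators had differences of opposite sign. Ppargc1a, which is induced by fasting and glucagon, ran from 2.39 through a median of 3.58 to 4.24 log2 CPM in WT and from 3.51 through 3.67 to 4.39 in DKO, with WT 4 as the lowest library. Its DKO level was 120% of WT (95% interval 81.1% to 177%; log2 fold change 0.26, SE 0.26, limma adjusted p = 0.678). Without WT 4 the log2 fold change was 0.03. Ppargc1b ran from 3.19 through 3.44 to 3.95 in WT and from 2.62 through 3.20 to 3.70 in DKO, where DKO 1, DKO 2 and DKO 4 lay below all WT libraries and the other 3 within the WT range. Its DKO level was 82.7% of WT (95% interval 60.7% to 113%; log2 fold change -0.27, SE 0.21, limma adjusted p = 0.556). The ratio of Ppargc1a to Ppargc1b differed by 0.54 log2 units (95% interval -0.29 to 1.37; exact permutation p = 0.195, adjusted p = 0.195 over the 3 ratios), so a difference in response between them was not shown.

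Among genes that work with or under PGC-1, 19 of 21 listed had a row and 1 was called, where 1.74% of all genes were called. It was Idh3a, a subunit of the citrate cycle's isocitrate dehydrogenase, which averaged 2.51 ± 0.54 log2 CPM over WT and -1.87 ± 2.57 over DKO libraries (SD, n = 6 each; log2 fold change -4.38, limma adjusted p = 0.0317). Of the DKO libraries 3 were within 0.01 of the table's minimum, and DKO 4 (-3.21) lay just above it, so the size depends on how low values were treated. DKO 2 stood at -1.37, while DKO 3 (3.14) lay within the WT range (1.97 to 3.18), so the difference was not shared by all DKO libraries. Whether the authors' counting assigned reads of Idh3a differently between libraries was not tested. The call was lost without any single library except WT 1, DKO 2, DKO 3 or DKO 6 (limma adjusted p up to 0.0783). The list's median log2 fold change was -0.06, and the mitochondrial DNA factor Tfam was at 96.7% of WT (limma adjusted p = 0.868). Pck1, the entry enzyme of glucose production, was at 84.3% (limma adjusted p = 0.654). Upstream of PGC-1, limma called 0 of 11 genes, and 3 had an unadjusted p below 0.05, as did 16.4% of all genes. Gcgr, the glucagon receptor, was closest at 88.9% of WT (limma adjusted p = 0.177). Pprc1, a relative of the PGC-1 proteins, was the closest to the threshold among 17 other coactivators, 0 of which were called by limma and 1 of which had an unadjusted p below 0.05 (log2 fold change 0.53, limma adjusted p = 0.218).

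The RXR genes, whose products are the shared partner of these receptors, were among the steadiest members. Rxra ran from 8.85 through a median of 9.0 to 9.18 log2 CPM in WT and from 8.82 through 8.85 to 9.19 in DKO. DKO 6 alone stood high among the DKO libraries. The DKO level of Rxra was 93.1% of WT (95% interval 82.0% to 106%; log2 fold change -0.10, SE 0.09, limma adjusted p = 0.604). Its sign turned with quantile normalization (0.0079). Rxrb ran from 4.83 through 5.04 to 5.24 in WT and from 4.67 through 4.87 to 5.11 in DKO, with broad overlap. It was at 90.7% of WT (95% interval 78.7% to 105%; log2 fold change -0.14, SE 0.10, limma adjusted p = 0.503). Of 10 other receptors that pair with RXR or belong to its family, 9 had a row and 8 were lower in DKO. Limma called 0 (1.74% of all genes), and 2 had an unadjusted p below 0.05 (16.4% of all genes). Nr1h2, the gene of LXRβ, a sterol receptor, was closest at 80.2% of WT (log2 fold change -0.32, limma adjusted p = 0.193).

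Ncor1, the corepressor, had the smallest difference of the 10. It ran from 6.52 through a median of 6.87 to 7.24 log2 CPM in WT and from 6.72 through 6.85 to 7.07 in DKO, all DKO libraries lying inside the WT range. The DKO level was 99.3% of WT (95% interval 84.1% to 117%; log2 fold change -0.01, SE 0.11, limma adjusted p = 0.980). Limma called 0 of 12 other corepressors and subunits of the NCoR complex (1.74% of all genes). Of these 12, 2 had an unadjusted p below 0.05 (16.4% of all genes). Nr2f6, an orphan receptor that represses transcription, was closest at 83.5% of WT (limma adjusted p = 0.196).

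Set per length, the members covered a wide range of abundance. CPM was divided by the length of the longest protein-coding transcript of each gene in GENCODE M21 (GRCm38), a choice that the deposited values do not fix. In WT, Nr1i3 (114 ± 39.1 CPM per kilobase, SD, n = 6) and Rxra (106 ± 9.87) were highest and overlapped between libraries. Ppara (48.1 ± 8.59) and Nr1i2 (39.2 ± 3.74) formed the next pair, again overlapping, followed by Ncor1 (13.2 ± 2.36) with Rxrb (12.5 ± 1.23). Pparg (4.45 ± 1.71), Ppargc1b (3.07 ± 0.65), Ppard (2.96 ± 0.62) and Ppargc1a (1.94 ± 0.74) were lowest, and each overlapped its neighbour. In DKO, Rxra (98.6 ± 10.4) stood first and Nr1i3 (57.6 ± 23.2) second. With the median transcript length in place of the longest, Rxra was first in WT too, Ncor1 stood before Nr1i2, and the order of the 4 lowest became Ppard, Pparg, Ppargc1a and Ppargc1b.

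The spread between libraries within a group differed between members. After subtraction of the group means, Nr1i3 had an SD of 0.59 log2 CPM, above that of 96.4% of the 845 genes within 1 log2 unit of its level. Pparg (SD 0.71) and Ppargc1a (SD 0.52) stood above 94.1% and 91.2% of genes of like level. Rxra (0.14), Rxrb (0.15) and Ppard (0.21) stood above 24.8%, 21.5% and 19.9%. The SD of Ppard differed between the groups, at 0.29 in WT and 0.05 in DKO. Over the 45 pairs of members, 0 correlations of these deviations passed after adjustment by either measure (12 libraries, 100000 resamples within groups); 3 had an unadjusted permutation p below 0.05 by Pearson's r and 6 by Spearman's rho. The lowest p of rho was that of Ppara with Ppard (rho = 0.80, permutation p = 0.00367, adjusted p = 0.103; Pearson r = 0.51, permutation p = 0.170, adjusted p = 0.734), with r at 0.43 without WT 1 and DKO 4, the 2 libraries farthest from the median of Ppara. The lowest p of r was that of Nr1i2 with Nr1i3 (Pearson r = 0.72, permutation p = 0.0122, adjusted p = 0.356; Spearman rho = 0.54, permutation p = 0.0917, adjusted p = 0.516). Without DKO 1 and DKO 5, the 2 libraries farthest from the median of Nr1i2, r was 0.43.

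**Figure D4:**
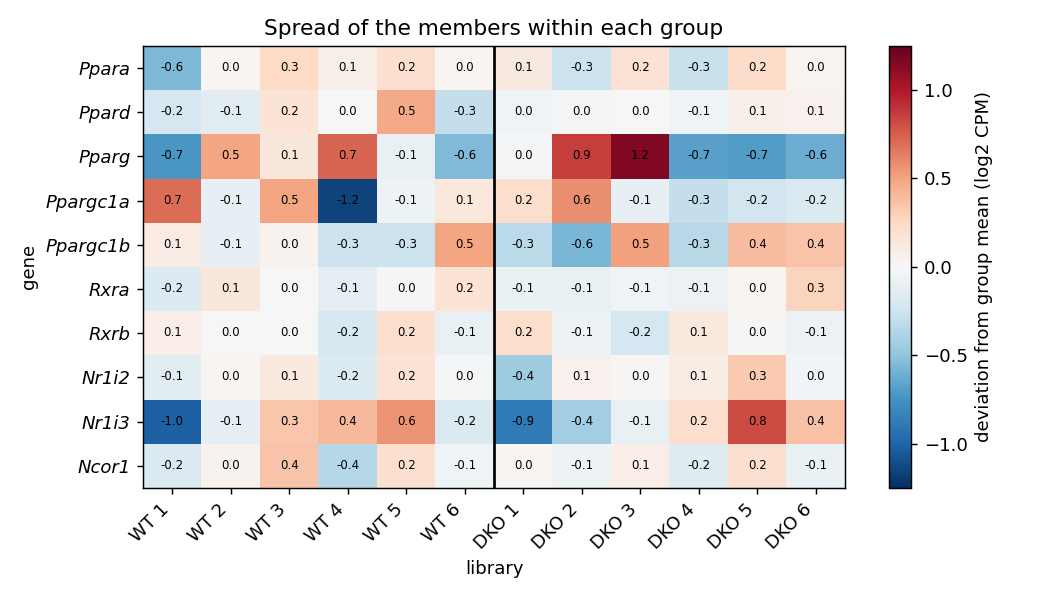
Deviation of each member from the mean of its own group in each library, in log2 CPM, with WT on the left and DKO on the right of the line. Nr1i3 is low in WT 1 and DKO 1, Pparg is high in DKO 2 and DKO 3, and Ppargc1a is low in WT 4.

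The genes most like a member in these deviations were named by the highest Pearson r, as a description with no test. They were taken from genes with an established symbol and a mean of 1 log2 CPM or more. Predicted genes, clone names and repeated symbols were left out of this choice. For Nr1i3 they were Eif4b, a translation factor, and L3hypdh, an enzyme of hydroxyproline breakdown (both at 0.95 over 12 libraries). For Ppara they were Zfp759 and Utp15 (both 0.92), for Ppard Apoa5 (0.93) and Rabggtb (0.92), and for Pparg Pir (0.89) and Sephs1 (0.87). For Ppargc1a they were Pitx3 (0.93) and Mbd1 (0.91), and for Ppargc1b Lzts2 (0.90) and Zdhhc9 (0.89). Rxra had Rspo3 (0.92) and Spred2 (0.91), Rxrb Srrm4 (0.86) and Pigh (0.85), Nr1i2 Hmga1 (0.93) and Slc41a3 (0.90), and Ncor1 Fmo5 (0.92) and Ddx19a (0.91). Spearman's rho was lower for Zfp759 (0.66) and Utp15 (0.65) with Ppara, and for Apoa5 (0.67) with Ppard. It was 0.81 (Slc41a3) to 0.98 (Eif4b) for the others. Ppara was low in WT 1 (6.77 log2 CPM, next 7.36), and the part of WT 1 in its r values was not tested. Values of 1 library share its RNA, depth and normalization, and none of these 20 genes was called between the groups.

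Levels of a receptor and of its target list were compared across the 6 libraries of a group, in 4 relations and 2 groups, 8 in all. In WT, Ppara and the mean level of 51 PPARα targets had a Pearson r of 0.87 (exact permutation p = 0.00694, adjusted p = 0.0556) and a Spearman rho of 0.94 (exact permutation p = 0.0167, adjusted p = 0.133). WT 1 was lowest in both measures, and r was 0.96 over the 4 libraries left without WT 1 and WT 3. In DKO, r was -0.03 (exact permutation p = 0.960, adjusted p = 0.960) and rho 0.43 (exact permutation p = 0.419, adjusted p = 0.568). Nr1i3 and the mean of 34 CAR and PXR targets had r = 0.93 in WT (exact permutation p = 0.0167, adjusted p = 0.0667) and rho = 0.77 (exact permutation p = 0.103, adjusted p = 0.411). There r was 0.64 without WT 1 and WT 5, and in DKO it was 0.28 (exact permutation p = 0.593, adjusted p = 0.791) with rho = 0.26 (exact permutation p = 0.658, adjusted p = 0.658). None of the 8 passed after adjustment, and whether the relation differed between WT and DKO was not tested. For Pparg and its targets r was 0.48 in WT and 0.62 in DKO (rho 0.37 and 0.43), and for Ppargc1a and the PGC-1 list 0.19 and -0.50 (rho 0.37 and -0.43), with exact permutation p of 0.215 or more and adjusted p of 0.531 or more.

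**Figure D5:**
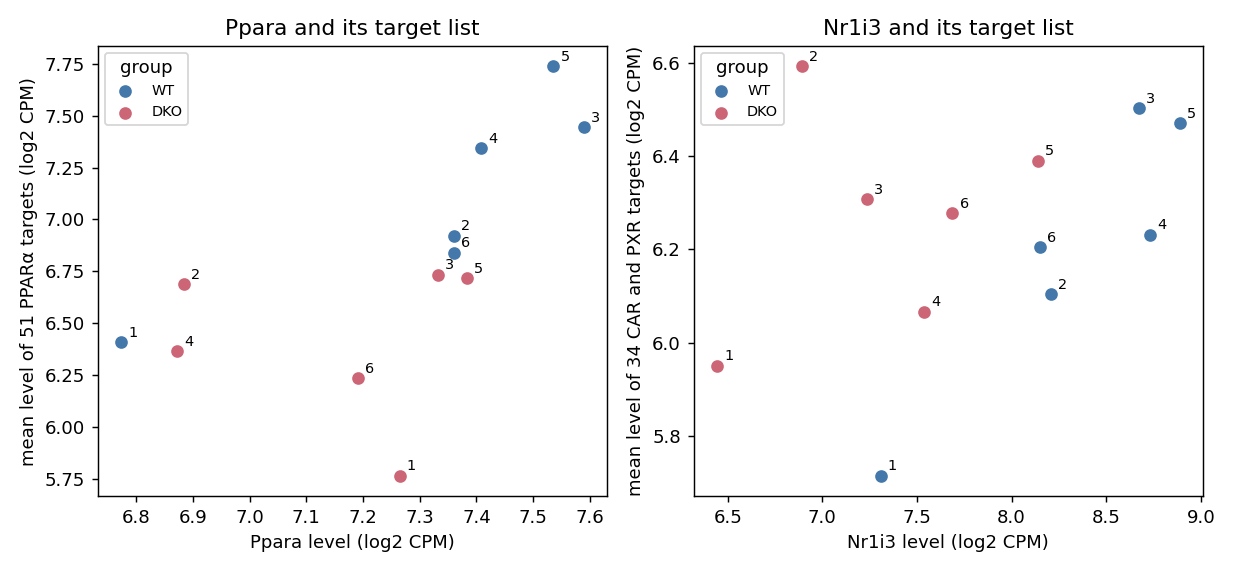
Mean level of a target list against the level of its receptor in log2 CPM, 1 point per library with its number, for Ppara (left) and Nr1i3 (right). The WT points rise together in both panels (Pearson r 0.87 and 0.93, neither passing after adjustment), WT 1 lying lowest, while r is -0.03 and 0.28 over the DKO points.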

How the data were processed

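RNA was sequenced in 12 liver libraries, 6 WT and 6 DKO, grouped by the genotype label. In the submitters' processing notes stand kallisto 0.46.2, edgeR, limma and GRCm39, without their roles. The deposited table holds log2 CPM, which the authors had filtered and normalized between libraries, per its name. The filter used and the count added are, in the sources used here, not given. The 1 row without a gene name was left out. The CPM of a library added up to 905964 at the least and 1087992 at the most; depth is unknown. Limma 3.58.1 in R 4.3.3 (mean trend, 2-sided) was fitted to all 12284 genes without a further filter, with Benjamini-Hochberg adjustment over them, and was checked on simulated data. For single values, exact permutation tests were 2-sided (smallest p 0.00216).

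The members and lists were chosen with earlier results of these data known. Named genes were all members, up to 3 called genes per direction of each list or else the one with the smallest p, and the 2 genes most like each member; others are marked. Promoters come from RefSeq, of another build than the data. Alternatives were robust limma, no mean trend, filters that kept means from 1 or from 3 log2 CPM, log2(CPM + 1), median subtraction, quantile normalization, array weights, a block for the replicate number and each library left out.

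Some single genes of the lists are not reported here.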

Additional observations from a re-analysis of the deposited data

Results flagged for a closer look

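In each group of 6 libraries, the gap between the extreme library and its nearest neighbour was divided by the range of the group, and values past Dixon's 95% critical value are given here. Of 72 groups of values examined 6 were past it, and chance gives about 1 in 20. Ppara was lowest in WT 1 (6.77 log2 CPM, next 7.36). Rxra was highest in DKO 6 (9.19, next 8.94), and without DKO 6 its log2 fold change was -0.16 (limma adjusted p = 0.313). Acss2 was highest in WT 1 (7.45, next 6.5). Acaa1b was highest in DKO 2 (10.4, next 9.74). Idh3a was highest in DKO 3 (3.14, next -1.37). Gsta1 was lowest in WT 1 (-1.87, next -0.56).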

How the results depend on the processing

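Of the 10 members, 7 kept their sign and stayed uncalled under all alternatives. Nr1i3 kept its sign and was called in 3 of 22: with the replicate block (-1.0, limma adjusted p = 0.00504), without WT 1 (-1.21) and without WT 1 and DKO 1 (-1.03, added after seeing the data); leaving out 1 library gave -1.21 to -0.83. Rxra turned with quantile normalization (0.0079), as did Ncor1 (0.074), whose value without 1 library ran from -0.082 to 0.062. Called members numbered 1 with the block and without WT 1 and DKO 1, and 0 to 1 without 1 library. All called genes numbered 138 with no mean trend, 109 with quantile normalization, 356 with array weights, 397 with the block, and 92 to 373 without 1 library. Called PPARα targets were 4 with quantile normalization, 26 with the block and 6 to 19 without 1 library; CAR and PXR targets 15 with the block and 6 to 12 without 1 library. Called PPARγ targets were 1 with no mean trend, 5 with the block, and 1 to 2 without 1 library. They were also 1 with a filter at 1 or 3 log2 CPM, both of which removed Cfd before the fit. PGC-1 targets called were 0 with no mean trend or without WT 1 and DKO 1, and 0 to 2 without 1 library. They were also 0 with either filter, both of which removed Idh3a before the fit. With the 2 farthest libraries left out, r turned for Ppara in DKO (0.66), Pparg in WT (-0.087) and DKO (-0.78), Ppargc1a in DKO (0.014) and Nr1i3 in DKO (-0.81). Apart from the removal of Cfd and Idh3a by the filters, the cause of these changes was not tested.

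The shared replicate numbers are not said to pair mice. Deviations of same-numbered libraries correlated at over 0.1 in 2 of 6 pairs (r from -0.077 to 0.287). Of the 12 libraries 7 correlated best with their own number, among the 6 libraries of the other group. Whether the numbers mark something shared was not tested. Because the labels do not pair the libraries, the block is given as an alternative alone. The unknown depth limits the lowest genes most, such as Cfd and Idh3a.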
